A study of Homo sapiens with 6 samples.

Results

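RWPE-1 is an immortalised, non-malignant line of human prostate epithelial cells, and the untreated line was profiled here at passages 18, 38 and 42. These 3 arrays are the untreated members of a series of 6; the other 3 hold CAsE-PE, the malignant derivative obtained by growing RWPE-1 continuously in 5 µM sodium arsenite, sampled at 30, 33.5 and 35 weeks. All cells grew in a keratinocyte serum-free medium supplemented with bovine pituitary extract, epidermal growth factor and antibiotics, so the RWPE-1 arrays share line, medium and the absence of arsenite, and differ by passage. The members were defined by the untreated label, with earlier results of these data known. Their passage number placed 1 array on the early side (passage 18) and 2 on the late side (passages 38 and 42). No label says whether the 3 passages came from separate frozen stocks or from 1 running culture. With 1 early array, a difference between early and late has no early replicate. It was therefore read against the difference between the 2 late arrays. Any p-value rests on the spread of those arrays, moderated by a prior over all genes, and holds no spread between early arrays.

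Passage number counts how often a culture has been split and reseeded. An immortalised epithelial line is a mixed population without a fixed genome or epigenome that stays constant over many splits. Interferon-stimulated genes encode antiviral proteins and can be held at a low level without infection by autocrine interferon. Clustered protocadherins are cell adhesion proteins whose many promoters lie side by side and are commonly controlled together through DNA methylation and chromatin loops. The ATF4 and heat shock programmes respond to amino acid supply and protein folding.

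Each array gave 1 intensity for each of 33252 features, of which 18417 genes could be named, each by its brightest feature. Levels below are log2(intensity + 1), and differences are differences of these levels, so that 1 is a 2-fold difference; folds of dim genes are understated by the added 1. The median intensity was 93.3, 94.7 and 97.2 at passages 18, 38 and 42. Epithelial keratins were bright on all 3 arrays. The basal keratin KRT5 stood at 12.06 at passage 18 and at 12.05 ± 0.07 (SD, n = 2) on the late arrays, and the simple-epithelial keratins KRT8 (11.18, 11.14 and 11.03) and KRT18 (10.47, 10.53 and 10.38) were also similar. The secreted prostate marker KLK3, prostate-specific antigen, was dim at 6.03, 6.17 and 6.27. Markers of other cell types were dim and alike. None of 13 leukocyte, 12 stromal and 10 endothelial genes measured differed by 1.5-fold between passage 18 and both late arrays. Over all genes 0.353% were higher and 0.174% lower by that rule, so lists this small would seldom hold such a gene. The leukocyte gene PTPRC stood at 3.94, 3.99 and 3.84.

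The order of the passages was not the order of the differences. Passages 18 and 38, which are the most widely separated neighbours in passage number, were the most alike, with a standard deviation of gene differences of 0.18, a Pearson correlation across genes of 0.995, and 25 genes apart by 2-fold or more. Passages 38 and 42 had a standard deviation of 0.28, a correlation of 0.987 and 108 such genes. Passages 18 and 42 had a standard deviation of 0.31, a correlation of 0.985 and 183 such genes. Genes are not independent replicates, and these values describe 3 arrays only. Of the 108 genes, the level at passage 18 was nearer to passage 38 for 97 and nearer to passage 42 for 11. Passage 42 was thus the array that stood apart, and a mean of passages 38 and 42 mixes 2 unlike samples. Part of its distance followed brightness. Passage 42 minus passage 38 had a median of 0.08 in the dimmest 6139 genes, 0.06 in the middle 6139 and -0.08 in the brightest 6139. The part of this slope in the larger differences was not tested.

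**Figure D1:**
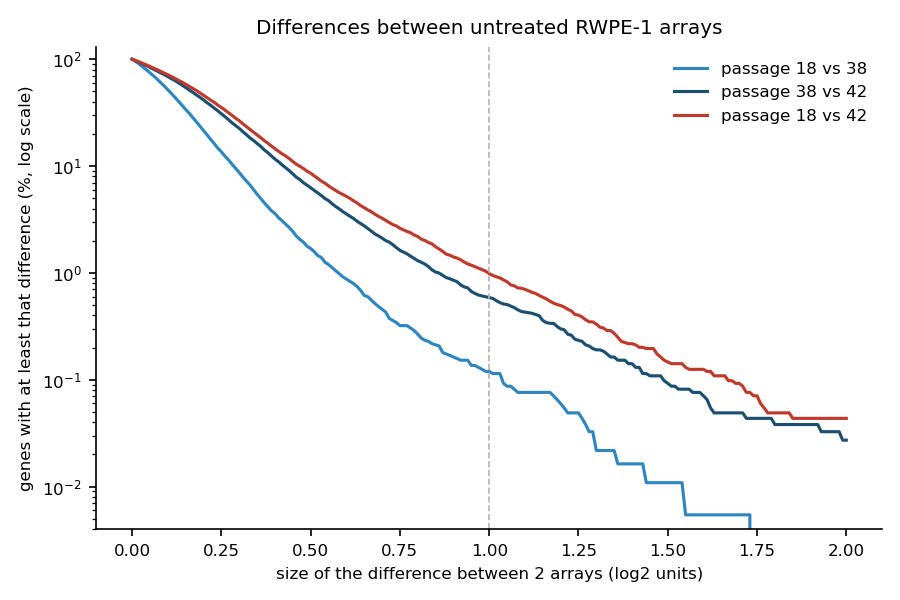
Share of named genes (vertical axis, percent on a log scale, genes of chromosome Y left out) whose levels differ by at least the size on the horizontal axis (log2 units) between 2 untreated RWPE-1 arrays, with the dashed line at a 2-fold difference. The curve for passages 18 and 38, with 25 genes at 2-fold or more among all genes, lies below the curves for passages 38 and 42 (108 genes) and 18 and 42 (183 genes).

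To find what separates passage 18 from both later arrays, a gene was counted when its passage 18 level was at least 2-fold away from passage 38 and from passage 42 in the same direction. This held for 8 genes that were higher at passage 18 (0.0434% of all genes) and 7 that were lower (0.0380%). Of these 15, 2 lie on chromosome Y and are not described. The remaining 13 comprise a vitamin D hydroxylase, a membrane peptidase, a cadherin, an interferon-stimulated gene, a transglutaminase and a non-coding RNA on the higher side. On the lower side stand 4 protocadherins, a transcriptional coactivator, a schlafen protein and a non-coding RNA. In 12 of the 13 the late arrays lay closer to each other than either lay to passage 18, and TGM2 was the exception. By mean level on the 3 arrays, 5 of the 15 were among the dimmest 6139 genes, IFIT1, LIMD1-AS1 and PCDHB6 among them. At 1.5-fold, 65 genes were higher (0.353%) and 32 lower (0.174%) at passage 18. In limma's moderated test of the early array against the 2 late ones, with 1 residual degree of freedom, 0 genes passed a Benjamini-Hochberg adjusted p of 0.05 (0.00%), and 533 had an unadjusted p under 0.05 (2.89% of genes). The lowest adjusted p of a described gene was 0.0711, for PCDHB5.

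CYP24A1 encodes the mitochondrial hydroxylase that inactivates vitamin D, and it gave the widest gap. In passage order its levels were 8.84, 7.30 and 6.22, a step down each time. Passage 18 exceeded the late mean by 2.08 (SE 0.34, limma adjusted p = 0.111), a 4.24-fold difference. The CAsE-PE arrays stood at 6.32 ± 0.81 (SD, n = 3), close to passage 42. TGM2, the tissue transglutaminase that crosslinks matrix proteins, followed the same order, with 10.04, 8.86 and 7.53 at passages 18, 38 and 42. Its late arrays were 1.32 apart, more than the 1.18 that separated passage 18 from passage 38, and its limma adjusted p was 0.465. LIMD1-AS1, a non-coding RNA antisense to LIMD1, stood at 7.20, 5.84 and 5.04, and its early minus late difference was 1.76 (SE 0.28, limma adjusted p = 0.111). In CAsE-PE it was 6.94 ± 0.32 (SD, n = 3), a level near passage 18 and above both late arrays.

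ANPEP and CDH2 are surface proteins. ANPEP, the aminopeptidase CD13, stood at 8.40, 7.10 and 6.63 at passages 18, 38 and 42, and exceeded the late mean by 1.53 at passage 18 (SE 0.23, limma adjusted p = 0.0949). CDH2, the neural cadherin commonly used as a mesenchymal marker, stood at 7.46, 6.17 and 5.80. Its difference was 1.48 (SE 0.22, limma adjusted p = 0.0949), and its CAsE-PE level of 6.18 ± 0.46 (SD, n = 3) spanned the late RWPE-1 values. Among 25 cadherins and catenins measured, CDH2 alone differed by 1.5-fold between passage 18 and both late arrays. CDH2 was named for its wide gap, and over all genes 0.353% were higher and 0.174% lower by that rule. The count therefore says little about how particular the difference is to CDH2. The epithelial cadherin CDH1 stood at 10.61, 10.56 and 10.57, and the placental cadherin CDH3 at 11.17, 11.09 and 11.05. CDH11, a mesenchymal cadherin, was 8.98 and 9.06 at passages 18 and 38 and 7.92 at passage 42, so that its difference lay between the late arrays.

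Just short of the 2-fold rule were CXCL8, GSTM1, BNIP3 and IFIT3 on the higher side. CXCL8, the neutrophil chemokine interleukin-8, stood at 6.81 against 5.86 and 5.75. GSTM1, a glutathione transferase, stood at 7.68 against 6.74 and 6.27. BNIP3, a mitophagy receptor induced by low oxygen, stood at 11.18 against 10.30 and 10.25. The late arrays agreed closely for CXCL8 and BNIP3, which were 0.11 and 0.05 apart. The non-coding RNA LINC02901 (6.64, 5.76 and 5.41) and the vesicle fusion gene VAMP7 (8.38, 7.12 and 7.52) completed the 12 widest gaps on that side. None of these had a limma adjusted p below 0.355.

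**Figure D2:**
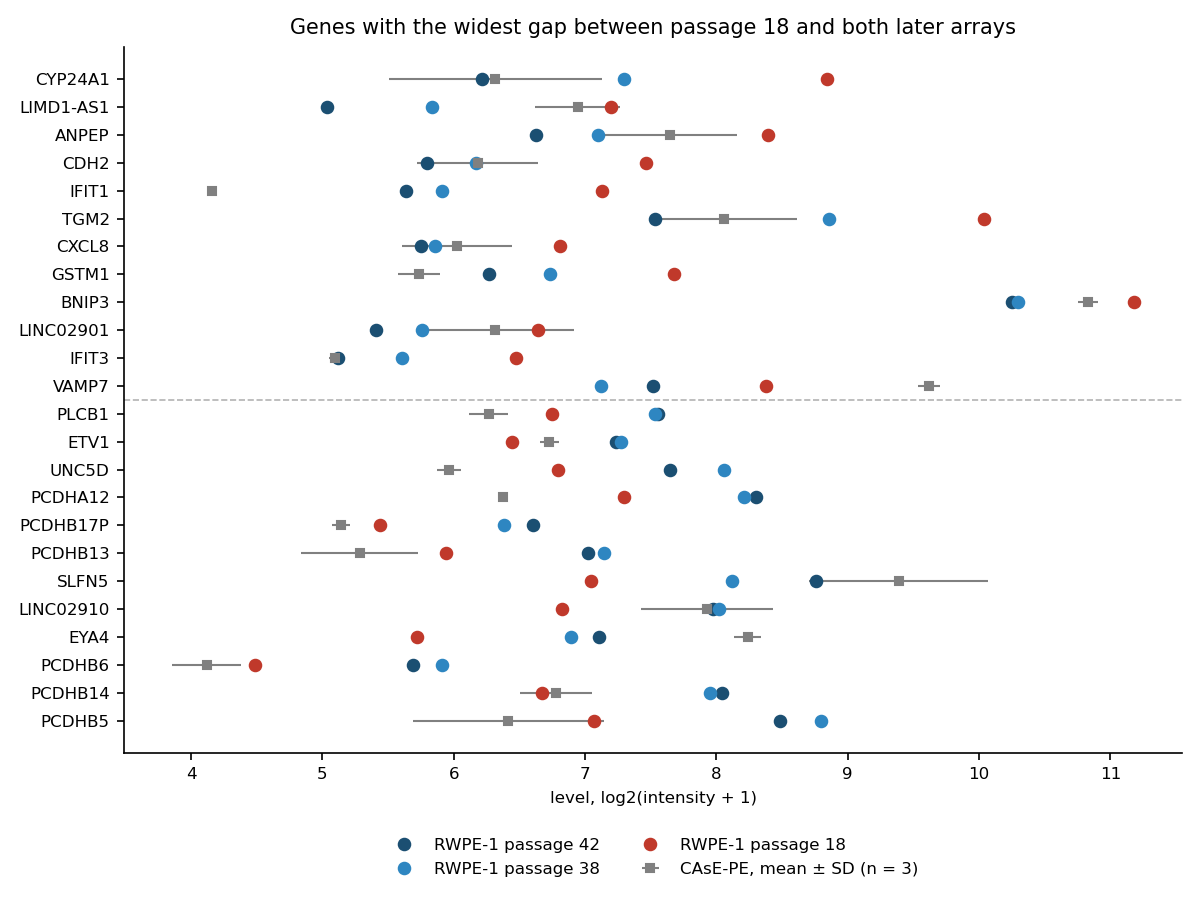
Levels, log2(intensity + 1), of the 12 genes with the widest gap above (upper block) and the 12 below (lower block) both late arrays at passage 18, chromosome Y left out. Circles are single RWPE-1 arrays, and squares with bars are the CAsE-PE mean ± SD (n = 3). The red circles of passage 18 lie outside both blue circles in every row by construction of the choice, while CAsE-PE lies on either side.

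The lower side was led by clustered protocadherins, adhesion proteins encoded in 3 neighbouring arrays of genes on chromosome 5 (PCDHA, PCDHB and PCDHG). The promoters of 3 of the genes with the widest gaps are shown because they share a run of bases. No promoter entry was found for PCDHB6, whose gap was wider than that of PCDHB13. Each stretch is the 100 bases before the annotated start, plus strand, RefSeq GRCh38.p14, and the capitals mark TGGTGGCGCT, the longest run the 3 have in common. PCDHB5 is at chr5:141135106-141135205, PCDHB14 at chr5:141223243-141223342 and PCDHB13 at chr5:141213819-141213918.
PCDHB5: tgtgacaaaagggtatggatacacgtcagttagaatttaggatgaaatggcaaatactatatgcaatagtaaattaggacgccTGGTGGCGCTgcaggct
PCDHB14: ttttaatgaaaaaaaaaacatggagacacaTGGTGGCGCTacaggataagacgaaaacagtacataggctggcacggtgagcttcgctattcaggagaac
PCDHB13: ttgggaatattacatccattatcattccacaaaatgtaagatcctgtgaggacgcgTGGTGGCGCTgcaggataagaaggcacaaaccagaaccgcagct
The run begins 17 bases before the start site in PCDHB5, 70 before it in PCDHB14 and 44 before it in PCDHB13. Searched on both strands over each gene's promoter window, it was present in 40 of 27305 genes with a RefSeq promoter (0.146%) and in 8 of the 24 measured PCDHA and PCDHB genes that had one (33.3%), the 3 that defined it included. The run was chosen after the sequences were seen, and a match is a description of the letters only.

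PCDHB5 stood at 7.07 at passage 18 and at 8.80 and 8.48 at passages 38 and 42. The early array was lower by 1.57 on the log2 scale than the late mean (early minus late -1.57, SE 0.21, limma adjusted p = 0.0711), and CAsE-PE at 6.42 ± 0.73 (SD, n = 3) was lower still. PCDHB14 stood at 6.68 against 7.95 and 8.05, with a difference of -1.32 (SE 0.20, limma adjusted p = 0.0949). PCDHB6 stood at 4.48 against 5.91 and 5.69 (difference -1.32, limma adjusted p = 0.0949). PCDHB13 stood at 5.94 against 7.14 and 7.02. For each of these 4 genes the late arrays differed by 0.32 or less, and the CAsE-PE mean was also below both late arrays.

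The pattern ran along the cluster. In chromosomal order, 31 protocadherin genes were measured, and passage 18 was below both late arrays in 30 of them, against 37.5% of all genes. The early minus late differences ranged from -1.57 (PCDHB5) to 0.19 (PCDHB16), with a median of -0.66. By at least 1.5-fold, 13 genes were lower, against 0.174% of all genes. All 12 PCDHA genes were below both late arrays, with a median of -0.57 and a range of -0.96 to -0.47. In this group PCDHA12 stood lowest relative to the late arrays, at 7.30 against 8.21 and 8.30. Of 18 PCDHB genes, 17 were below. The one measured PCDHG gene, PCDHGB4, differed by -0.66. The late arrays were close throughout: the median of passage 42 minus passage 38 was 0.05, and the widest late difference in either direction was 0.47.

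The 12 other genes in the same stretch, among them HARS2, TAF7, DIAPH1 and HDAC3, had a median early minus late difference of 0.08. None of the 12 differed by 1.5-fold in the lower direction, against 0.174% of all genes, so a count of 0 is unremarkable here. Of the 12, 5 were below and 3 above both late arrays, against 37.5% and 27.5% of all genes. In all 31 protocadherin genes the CAsE-PE mean was below the late RWPE-1 mean, with a median difference of -0.99; both differences use the same late arrays and so are not independent. Along the chromosomes, 12263 of the 18417 named genes were divided into 480 windows of 25 neighbouring genes. The lowest 2 medians of early minus late, -0.25 and -0.22, were adjacent windows holding this cluster (PCDHB3 to SH3RF2 and SRA1 to PCDHB2). The highest 2, 0.24 and 0.22, were also adjacent windows of chromosome 5 (MED10 to MTMR12 and ZFR to FBXO4). Adjacency of extreme windows was thus not particular to the protocadherins. The window from DUSP22 to RIOK1 on chromosome 6 had a median of 0.21. Its medians were 0.23 against passage 38 and 0.22 against passage 42. Protocadherin genes are related in sequence and the PCDHA genes share their constant exons, so their features may not be independent, which was not tested.

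**Figure D3:**
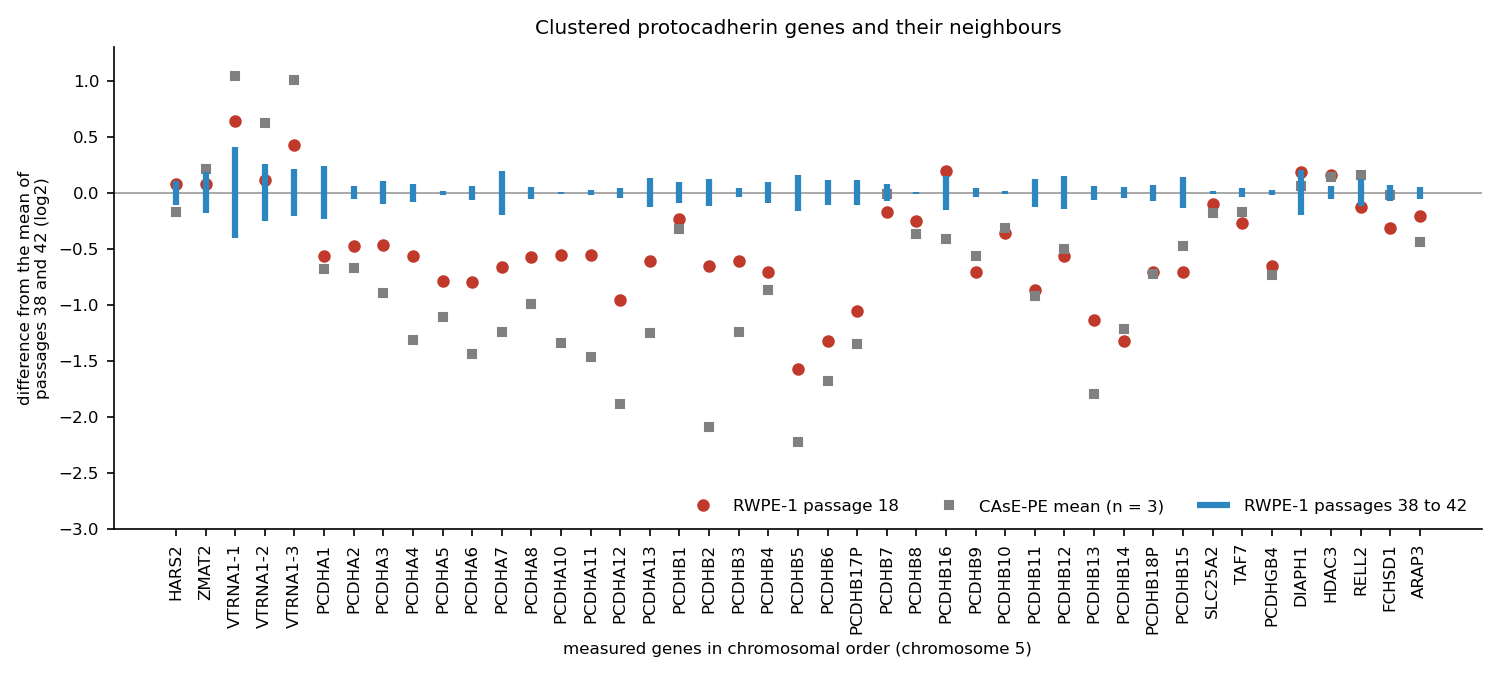
Difference in level (log2) from the mean of passages 38 and 42 for measured genes along the protocadherin clusters and their neighbours, in chromosomal order. Red circles are passage 18, grey squares are the CAsE-PE mean (n = 3) and blue bars span passages 38 to 42. Passage 18 lies below the bars in 30 of 31 protocadherin genes and close to 0 in most of the flanking genes.

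The other lower genes had varied functions. EYA4, a transcriptional coactivator with phosphatase activity, stood at 5.72, 6.90 and 7.10 in passage order, and at 8.24 ± 0.11 (SD, n = 3) in CAsE-PE (early minus late -1.28, limma adjusted p = 0.106). SLFN5, a schlafen family protein that interferon can induce, stood at 7.04, 8.12 and 8.76 and at 9.39 ± 0.68 (SD, n = 3) in CAsE-PE (limma adjusted p = 0.230). In both genes the levels were ordered passage 18, 38, 42 and CAsE-PE from low to high. LINC02910, a non-coding RNA, stood at 6.82, 8.02 and 7.98, with late arrays 0.05 apart. Among the next in size, UNC5D, a netrin receptor, stood at 6.80, 8.06 and 7.65. The transcription factor gene ETV1 stood at 6.44, 7.27 and 7.24, and the phospholipase gene PLCB1 at 6.75, 7.54 and 7.56. The pseudogene PCDHB17P (5.44, 6.38 and 6.60) was just short of 2-fold.

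In the interferon response list, 6 of 79 measured genes were higher at passage 18 by 1.5-fold, against 0.353% of all genes. Secreted interferons bind surface receptors, and the signal acts through a short element in the promoters of antiviral genes. The promoters of IFIT1 and IFIT3, the antiviral genes with tetratricopeptide repeats that had the widest gaps, are shown for this element. Each stretch is the 150 bases before an annotated start, plus strand, RefSeq GRCh38.p14, and the capitals mark 2 copies of GAAA with any 2 bases between them, here on the opposite strand and so printed as TTTC. IFIT1 is at chr10:89392473-89392622, and the 2 annotated starts of IFIT3 are at chr10:89327847-89327996 and chr10:89332379-89332528.
IFIT1: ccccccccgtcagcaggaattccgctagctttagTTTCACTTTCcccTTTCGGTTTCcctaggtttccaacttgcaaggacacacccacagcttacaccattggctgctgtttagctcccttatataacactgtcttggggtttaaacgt
IFIT3 first start: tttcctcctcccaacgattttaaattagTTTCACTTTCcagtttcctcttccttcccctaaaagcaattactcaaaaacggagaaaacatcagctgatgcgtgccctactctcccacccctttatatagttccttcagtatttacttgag
IFIT3 second start: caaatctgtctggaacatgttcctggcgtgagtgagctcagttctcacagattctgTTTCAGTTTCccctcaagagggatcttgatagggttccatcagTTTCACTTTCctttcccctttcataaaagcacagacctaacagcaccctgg
The matches begin 116 and 103 bases before the start in IFIT1, 122 bases before the first start of IFIT3, and 94 and 51 bases before the second. On either strand the motif was present in 1195 of 27305 genes with a promoter (4.38%). It was present in 32 of the 64 interferon response genes with a promoter (50%) and in 24 of 34 antiviral effectors (70.6%). A match marks letters and not a bound site.

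IFIT1 stood at 7.13, 5.91 and 5.64 in passage order. Passage 18 exceeded the late mean by 1.35 (SE 0.21, limma adjusted p = 0.0949), a 2.55-fold difference, and the CAsE-PE arrays lay far below at 4.16 ± 0.03 (SD, n = 3). IFIT3 stood at 6.47, 5.61 and 5.12, and MX2, a dynamin-like GTPase that blocks nuclear entry of viruses, at 6.30, 5.56 and 5.21. OAS2, a synthetase of the RNase L activator, stood at 7.48, 6.84 and 6.18, and XAF1, a pro-apoptotic interferon target, at 7.87, 7.23 and 6.67. IFITM1, a membrane restriction factor, was higher at passage 18 as well (9.87 against 8.97 and 9.27), but here passage 38 was the lower of the late arrays. IFI44L stood at 8.45, 7.88 and 6.73, and its late arrays were further apart than passages 18 and 38.

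The list was divided by role. Of 41 antiviral effectors measured, 35 were higher at passage 18 than on both late arrays, against 27.5% of all genes, and 1 was lower; 6 were higher by 1.5-fold or more and 0 lower. Their median early minus late difference was 0.32, against -0.03 over all genes. The medians upstream were near that of all genes, at 0.03 over 12 interferons and receptors, 0.01 over 10 nucleic acid sensors and -0.04 over 10 signal transducers. Over the 6 genes of the ubiquitin-like modifier system it was 0.23, with 4 higher at passage 18 than on both late arrays. Across all 79 measured genes of the list the median was 0.22, and 52 were above and 12 below both late arrays. The list's median level was 7.55, 7.26 and 6.95 in passage order, and 6.64, 6.54 and 6.65 in CAsE-PE at 30, 33.5 and 35 weeks.

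The list also separated the late arrays. Passage 42 was lower than passage 38 by 1.5-fold or more in 11 of the 79 genes and higher in 0, against 2.41% and 1.42% of all genes. Among the 11 were IFNK and IFNE, the 2 of 12 interferon and receptor genes that passed this limit; the median of the 12 was -0.02. IFNK, the interferon made constitutively by keratinocytes, stood at 5.80, 5.30 and 4.38 at passages 18, 38 and 42 and at 4.15 ± 0.02 (SD, n = 3) in CAsE-PE. IFNE, an epithelial interferon, stood at 5.63, 5.21 and 4.38. Both were dim, were chosen after their values were seen, and have no detection call to set beside them. IFI44, an interferon-induced cytoplasmic protein, stood at 6.86, 6.66 and 5.71, so that its wider step lay between the late arrays.

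**Figure D4:**
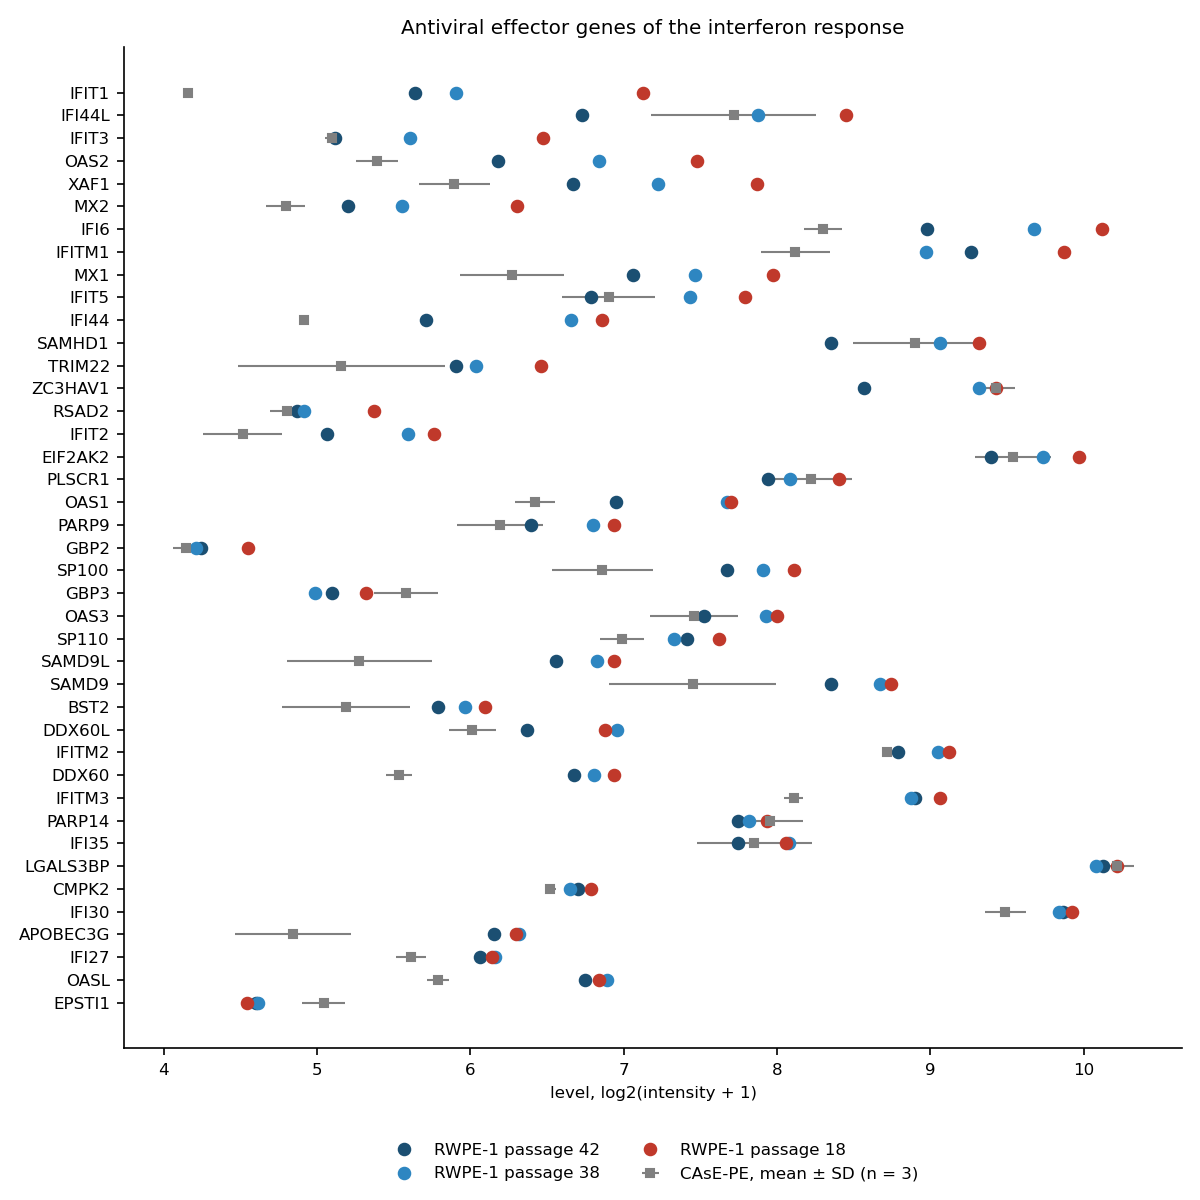
Levels, log2(intensity + 1), of the 41 measured antiviral effectors, ordered by the difference between passage 18 and the late mean. Circles are single RWPE-1 arrays and squares with bars the CAsE-PE mean ± SD (n = 3). Passage 18 is the rightmost RWPE-1 circle in 35 of 41 genes, and the median late difference is on the side of lower levels at passage 42.

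Inflammatory, matrix and growth factor genes gave smaller numbers. Over all genes, 0.353% were higher and 0.174% lower at passage 18 than on both late arrays by 1.5-fold. Of 54 cytokine-related genes, 2 were at least 1.5-fold higher at passage 18 and 0 lower. These were CXCL8, given above, and the related chemokine CXCL2 (6.40 and 6.21 on the late arrays, and higher by 0.69 at passage 18 than their mean). The group's median was 0.03. Among 40 mesenchymal genes, 3 were higher and 0 lower. They were the microfibril gene FBN1 (7.70, 6.99 and 6.23), the matrix glycoprotein TNC (8.61, 7.95 and 7.34) and the collagen crosslinking enzyme LOXL2 (9.54, 8.90 and 8.77). In the 24 structural and adhesion effectors of that list the median was 0.25, and in its 16 regulators 0.06. Squamous differentiation genes had a median of -0.06 over 29, with 3 higher at passage 18. These were the serpins SERPINB3 (8.27, 7.55 and 7.13) and SERPINB4 (6.30, 5.65 and 5.54), which are near-identical neighbours whose signals cannot be told apart here, and CASP14 (6.07, 5.35 and 5.27). CASP14, a caspase of cornification, was far higher in CAsE-PE at 9.68 (mean of 3), from 8.38 at 30 weeks to 10.73 at 35 weeks.

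The hypoxia and glycolysis list had a median early minus late difference of 0.19 over 26 genes, 20 of them higher and 2 lower at passage 18 than on both late arrays, with 3 higher at 1.5-fold. The shares over all genes were 27.5%, 37.5% and 0.353%. BNIP3 led, followed by PDK1, which restrains pyruvate entry into the mitochondria (9.20, 8.57 and 8.04), and P4HA1, a collagen prolyl hydroxylase (9.63, 8.94 and 9.01). The members did not agree at passage 42. VEGFA, the endothelial growth factor, stood at 8.97 and 8.82 at passages 18 and 38 and at 10.07 at passage 42. ANGPTL4, a lipase inhibitor, went the other way with 9.85, 9.34 and 7.26.

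Stress genes divided by programme. Of 12 heat shock genes measured, 11 were higher at passage 18 than on both late arrays, with a median of 0.34, and 4 were lower at passage 42 than at passage 38 by 1.5-fold or more. The shares over all genes were 27.5% and 2.41%. The co-chaperone DNAJA1 stood at 8.96, 8.26 and 7.12 at passages 18, 38 and 42, and HSPH1, an Hsp110 nucleotide exchange factor, at 9.51, 8.98 and 7.83. HSPA8, the constitutive Hsc70 chaperone, stood at 13.13, 12.79 and 11.94. In all 3 the second step, between passages 38 and 42, was the larger. The CAsE-PE levels of DNAJA1 (8.75 ± 0.09, SD, n = 3) and HSPH1 (8.89 ± 0.09, SD, n = 3) lay between those of passages 18 and 42.

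The unfolded protein response and ATF4 genes, not divided further, ran the other way and set passage 42 apart. Of 20 unfolded protein response and ATF4 genes, 8 were higher at passage 42 than at passage 38 by 1.5-fold or more and 0 lower, against 1.42% and 2.41% of all genes. Their median difference was 0.46, against 0.02 over all genes. DDIT3, the stress transcription factor CHOP, stood at 6.95 and 6.86 at passages 18 and 38 and at 9.28 at passage 42, a difference of 2.42 between the late arrays and the largest in that direction among named genes (5.37-fold). CHAC1, a glutathione-degrading enzyme induced by ATF4, stood at 7.13, 7.51 and 9.14. TRIB3, a pseudokinase target of both factors, stood at 8.54, 8.68 and 10.02. The amino acid synthesis genes ASNS (8.24, 7.98 and 9.19) and PSAT1 (9.44, 9.15 and 10.29) lay on the same side. The cystine transporter gene SLC7A11, listed with the NRF2 targets, stood at 8.94, 9.18 and 10.57. For DDIT3, TRIB3, ASNS and PSAT1 passages 18 and 38 were within 0.30 of each other. In CAsE-PE, CHAC1 stood at 9.16 ± 0.14 and DDIT3 at 8.59 ± 0.58 (SD, n = 3 each). CHAC1 was near passage 42 there. DDIT3 was near passage 42 at 30 weeks (9.3) and lower at 33.5 and 35 weeks (8.3 and 8.2). A mean of the late arrays hides this split: the early minus late difference of DDIT3 was -1.12 (SE 0.65, limma adjusted p = 1.00).

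In all, 48 genes were at least 2-fold higher (0.261%) and 60 at least 2-fold lower (0.326%) at passage 42 than at passage 38. Each side of this comparison is 1 array, and the difference has no replicate check. NUPR1, a stress-induced chromatin protein, stood at 7.98, 7.47 and 9.61 at passages 18, 38 and 42. SULT1E1, the estrogen sulfotransferase, stood at 7.35, 7.01 and 9.09, and in CAsE-PE it ranged from 6.68 at 30 weeks to 10.27 at 35 weeks. TCP11L2 (5.70, 5.87 and 7.79) completed the 5 widest on that side. TXNIP, the thioredoxin inhibitor that responds to glucose, stood at 10.55, 10.12 and 11.72.

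On the lower side of passage 42 were GLIPR1, a secreted protein induced by p53 (8.52, 7.91 and 5.80), and ANGPTL4, given above. TNFAIP3, the A20 deubiquitinase that restrains NF-kappaB, stood at 7.73, 8.08 and 6.36. The small nucleolar RNA gene SNORD14E stood at 7.55, 8.33 and 6.35. MRGPRX3, a G protein-coupled receptor, stood at 7.77, 8.35 and 6.55, and its second feature gave -1.69 against -1.79 for the same late difference. Except for GLIPR1 and ANGPTL4, the highest of the 3 arrays was passage 38. In sterol synthesis HMGCS1 (9.69, 10.19 and 9.13) and INSIG1 (8.01, 8.54 and 7.48) had the same shape, and the median of 25 sterol genes was -0.26 for passage 42 minus 38 and -0.03 for early minus late.

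Some small RNA genes were also on the lower side. MIR221 and MIR222 are neighbouring microRNA genes whose mature products share a seed, the bases that pair with targets, and their RefSeq GRCh38.p14 sequences are shown with bases 2 to 8 in capitals.
hsa-miR-221-3p: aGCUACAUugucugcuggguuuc
hsa-miR-222-3p: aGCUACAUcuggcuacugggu
MIR221 stood at 8.50 and 7.98 at passages 18 and 38, differed by -0.98 at passage 42 from passage 38, and stood at 6.27 ± 0.45 (SD, n = 3) in CAsE-PE. MIR222 stood at 6.93, 6.89 and 5.80, and at 5.38 ± 0.04 (SD, n = 3) in CAsE-PE. Both were chosen after their values were seen, and which precursor or host transcript these features detect was not analysed here. Over 173 microRNA genes the median of passage 42 minus 38 was 0.03, with 6 lower at passage 42 by 1.5-fold or more (3.47%) and 2 higher. Of 115 SNORD genes 21 were lower at passage 42 by 1.5-fold or more and 1 higher, and of 61 SNORA genes 8 were lower and 0 higher, with medians of -0.19 and -0.20. Over all genes 2.41% were lower and 1.42% higher by that fold. Against passage 38, the SNORD median at passage 18 was higher by 0.12 and the SNORA median differed by -0.03.

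Some genes kept 1 direction over both steps. By at least 0.5 at each step, 25 genes were successively lower and 4 successively higher from passage 18 through 38 to 42. The lower set held CYP24A1, TGM2, LIMD1-AS1, DNAJA1, HSPH1, FBN1, TNC, OAS2, XAF1, IFI44L and PDK1, with values above. It also held the interleukin-7 receptor gene IL7R (6.42, 5.68 and 4.66), the toll-like receptor gene TLR4 (6.33, 5.69 and 5.03) and the hyaluronan synthase gene HAS2 (6.29, 5.75 and 5.24). The higher set was SLFN5, ZBTB16, CCDC146 and KLRC4-KLRK1. ZBTB16, the zinc finger repressor PLZF, stood at 7.25, 7.82 and 8.79, and at 9.37 ± 0.17 (SD, n = 3) in CAsE-PE. CCDC146 stood at 4.67, 5.19 and 5.98, and KLRC4-KLRK1, a read-through transcript, at 4.73, 5.39 and 6.05. With 3 arrays, an order of levels is a description.

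In the lineage lists the late arrays gave different values. The 11 basal markers had a median early minus late difference of 0.01 and the 19 luminal markers one of 0.02. The basal median was 0.17 against passage 38 and -0.15 against passage 42, and the luminal medians against the single late arrays were -0.03 and -0.07. Between the late arrays the basal median was 0.26, led by the stem-associated keratin KRT15 (8.03 and 7.44 at passages 18 and 38, and 1.56 more at passage 42 than at 38) and the neurotrophin receptor NGFR (8.06, 8.19 and 9.02). Among the kallikreins KLK7 (7.13, 7.36 and 8.32) and KLK10 (9.03, 9.05 and 9.89) were higher at passage 42. The 22 DNA replication genes had a median early minus late difference of 0.13, with 16 above and 1 below both late arrays. The 26 mitosis genes had one of -0.11, with 3 above and 12 below. Over all genes 27.5% were above and 37.5% below. Of these 48 replication and mitosis genes, 0 differed by 1.5-fold. Of 26 EGF receptor pathway genes, 0 differed by 1.5-fold between passage 18 and both late arrays. Over all genes 0.353% were higher and 0.174% lower by that rule, so a count of 0 is unremarkable in lists of this size. The ErbB ligand gene NRG1 stood at 8.27, 7.73 and 7.50 and EPGN at 7.82, 7.30 and 6.90, while HBEGF, another ligand gene, stood at 8.81, 8.73 and 10.16. The morphogen gene BMP4, of the TGF-beta pathway, stood at 7.03, 6.43 and 6.15. SERPINB5, the p53 target maspin, stood at 10.54 at passage 18 and at 10.03 on both late arrays.

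In the remaining lists the median early minus late difference lay between -0.12 and 0.14. The metallothioneins, metal-binding proteins, and the TGF-beta pathway were highest at 0.14 each, followed by the EGF receptor pathway at 0.09, methylation machinery at 0.06, and laminins with integrins and ribosomal proteins at 0.03 each. The median of the cell cycle regulators was 0.04. Collagens and junction genes stood at -0.03, NRF2 targets at -0.02, and the imprinted genes and Notch pathway at -0.05. Antigen processing, the Wnt pathway and HOX genes stood at -0.07, neuroendocrine markers at -0.09 and p53 targets at -0.12. Among all these lists only BMP4, of the TGF-beta pathway, differed by 1.5-fold between passage 18 and both late arrays. Over all genes 0.353% were higher and 0.174% lower by that rule.

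Of the 33 lists, 3 had a median early minus late difference beyond 0.20 in either direction (clustered protocadherins, kallikreins and the interferon response), and 5 had a median beyond 0.20 between the 2 late arrays. Among the 3 lists beyond 0.20 for early minus late, the protocadherin list was the one whose late arrays agreed most closely, at 0.03 against -0.61. For the interferon response the late difference was -0.13 against 0.22, and for the kallikreins 0.13 against -0.23. The kallikrein value depended on averaging the late arrays. Against passage 38 alone the median was -0.020 and against passage 42 alone -0.18, both short of 0.20. The interferon response median was 0.13 against passage 38 alone, also short of 0.20, and 0.31 against passage 42 alone. For the protocadherins the same medians were -0.57 and -0.71.

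**Figure D5:**
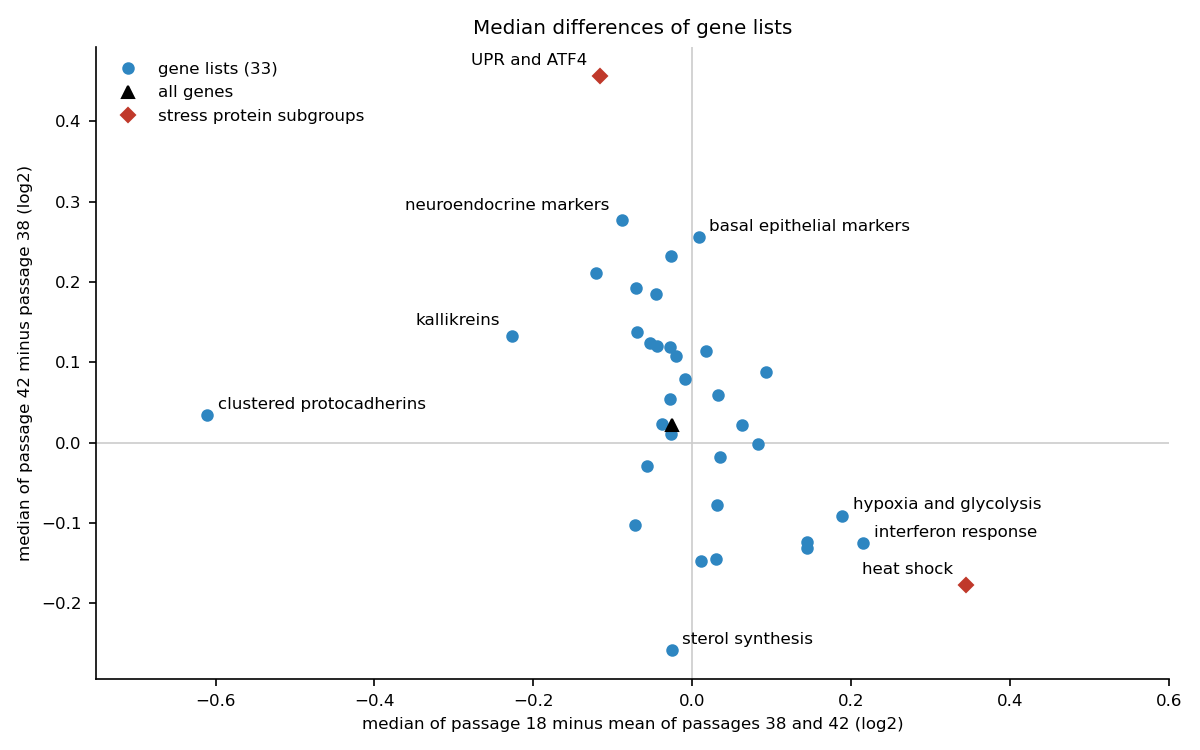
Median difference of each gene list between passage 18 and the mean of passages 38 and 42 (horizontal axis, log2) and between passages 42 and 38 (vertical axis, log2). Circles are the 33 lists, diamonds 2 subgroups of the stress list (UPR, unfolded protein response) and the triangle all genes. The protocadherins lie far to the left near 0 on the vertical axis. The UPR and ATF4 subgroup, at 0.46, is separated along the vertical axis.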

How the data were processed

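Per the labels' protocols, total RNA was isolated by Trizol and a Qiagen miRNA column, and target from an Ambion kit carried biotin. The authors deposited 1 linear intensity per feature and array; background correction, summarisation and normalisation are steps not given in the sources used here. Detection calls were not used. The number of arrays limits the precision.

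The supplied platform annotation named 1 symbol on 19460 features and several on 1754, and left 12038 unlisted; 19429 of the first matched RefSeq GRCh38.p14. Each of 18417 genes took its brightest single-symbol feature (769 had several), on log2(intensity + 1). Passage 18 was compared with passages 38 and 42 by differences and with limma 3.58.1 in R 4.3.3 (two-sided moderated test, 1 residual and 10.4 prior degrees of freedom, Benjamini-Hochberg adjustment), tested on simulated data. SE and adjusted p come from that fit. Promoter letters were searched in the RefSeq windows.

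Named genes were the 12 widest gaps each way, the 5 widest late differences each way, up to 3 per list past 0.5 from both late arrays, and 3 markers; others were chosen after their values were seen. The members and lists were chosen with earlier results of these data known. The 23 genes on chromosome Y were counted but not described. Beyond the lists described, the 33 covered antigen processing, collagens, laminins and integrins, junctions, cell cycle regulators, p53 targets, NRF2 targets, metallothioneins, Notch, Wnt, TGF-beta and EGF receptor pathways, HOX genes, methylation machinery, imprinted genes, ribosomal proteins and neuroendocrine markers. Alternatives varied the pseudocount, dim genes, scaling, feature rule, fold, limma settings and the late arrays used.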

Additional observations from a re-analysis of the deposited data

How the results depend on the processing

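No paired analysis was possible because the early side holds 1 array and no label links it to either late array. The number of genes at least 2-fold higher at passage 18 was 8, and 4 with the dimmest 6139 genes left out and 65 at 1.5-fold. Leaving out 1 late array gave 15 (without passage 42) to 120 (without passage 38). The number lower was 7, and 3 with a pseudocount of 16 and 32 at 1.5-fold, with 10 (without passage 42) to 63 (without passage 38) when 1 late array was left out. Between the late arrays, the 48 genes higher at passage 42 became 262 at 1.5-fold, and the 60 lower became 39 with a pseudocount of 16 and 443 at 1.5-fold. The limma calls, 0 in each direction, became 3 higher and 2 lower without the dimmest 6139 genes, 7 and 3 with a mean-variance trend, and 12 and 8 with passage as a linear covariate. CDH2, ANPEP, CYP24A1 and PCDHB5 were called in all of these 3 settings. IFIT1, LIMD1-AS1, EYA4 and PCDHB6 were called with the mean-variance trend and with passage as covariate. Of these, IFIT1, LIMD1-AS1 and PCDHB6 are among the dimmest 6139 genes, so the first setting left them out untested. The other limma settings run gave 0 calls. Leaving out 1 late array, the median early minus late difference ranged from 0.17 to 0.23 for hypoxia and glycolysis, from -0.71 to -0.57 for the protocadherins and from 0.13 to 0.31 for the interferon response. The kallikrein median of -0.23 was -0.020 without passage 42, and -0.18 without passage 38. The basal marker median was 0.17 and -0.15, and the luminal one -0.03 and -0.07, without passages 42 and 38. Without passage 42 the early minus late difference turned sign for DDIT3, NUPR1, SULT1E1, SNORD14E, MRGPRX3 and TNFAIP3. With 1 early array, passage, stock and handling cannot be told apart. Without a detection call, levels of dim genes cannot be told from background. The list medians between passages 38 and 42 were tried under alternatives chosen after seeing the data. The cause of these changes was not tested.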

Other observations

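Features without a single gene symbol also set passage 42 apart. Of 13792 such features, 30 were higher and 9 lower at passage 18 than on both late arrays by 2-fold or more (0.283% in all), whereas 240 were lower and 75 higher at passage 42 than at passage 38 (2.28%). These features are unnamed here.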
